A study of Mus musculus with 48 samples.

Results

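The comparison described here sets the intact colon of mice labelled Il10-/- against that of mice labelled C57BL/6J at 6 weeks of age. It holds 12 of the 48 samples of the series, 6 mice of each strain, chosen by the titles of the samples. The labels of the knockout mice give a C57BL/6J background without Il10, and the study's methods name the stock as B6.129P2-Il10tm1Cgn/J from the Jackson Laboratory. The control mice were C57BL/6JArc from the AgResearch colony, so the genotype, the substrain and the supplier change together and cannot be told apart. All 12 mice were male, were kept under conventional conditions on the AIN76A diet, and had received Enterococcus strains with conventional intestinal flora shortly before the colon was taken. The proximal colon of 1 mouse was labelled with Cy3 on each two-colour array, and a pool of tissues of healthy Swiss mice was labelled with Cy5. Every value below is a log2 ratio of Cy3 over Cy5, so that a difference of 1 between strains is a 2-fold difference, and each array carried 41174 different probes of 60 bases that name 27671 genes.

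Interleukin 10 is a cytokine of regulatory T cells, B cells and macrophages that restrains the response of these cells to microbes. Mice without it are healthy while young and develop colitis when they meet a conventional flora, so the colon before disease is where an early inflammatory response would be looked for. A second kind of difference can be present in such mice. The gene was disrupted in embryonic stem cells of a 129 strain, and backcrossing to C57BL/6J leaves some 129 DNA around the disrupted gene and sometimes elsewhere. Genes in such stretches are called passengers, and they can differ in level or only in the sequence that a probe has to match. Which strain's DNA a mouse carried at a given gene was not tested here.

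Few genes differed at this age. A probe was called when its fold change was over 1.5 and its FDR in limma, adjusted by Benjamini-Hochberg over all probes, was under 0.05, and a gene was called when any of its probes was. By that rule 63 of 27671 genes (0.228%) were called. In mice labelled Il10-/-, 40 of them had a higher ratio (0.145%) and 24 a lower one (0.0867%), and Wdfy1 had probes in both directions. Of the 40 higher genes, 30 were called by probes with a 3-letter repeat, described further on, and without such probes 10 genes were higher and 21 lower. The 63 genes were measured by 68 called probes (0.165% of the 41174 probes), 43 of them higher and 25 lower. The 6 mice of 1 strain lay wholly above or below those of the other for 59 of the 68 probes, against 0.440% of all probes. The absolute difference of the called probes had a median of 0.95 and ran from 0.59 to 3.70. With the image software's own background-subtracted signals in place of the loess-normalized ones, 50 genes were called higher and 14 lower. The lower genes fell to 14 without replicate 5 of the C57BL/6J mice and to 15 without replicate 1.

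The called probes fell into a few groups by what they share. A run of a 3-letter repeat in the probe itself was found in 30 probes of 30 genes, all higher in mice labelled Il10-/-. Another 19 probes of 17 genes lay on chromosome 1, which carries Il10, and 2 more genes, D2hgdh and Gal3st2, had no placed position. Chromosome 14 held 6 lower probes of 6 genes that are no angiogenin. The angiogenins accounted for 5 probes of 4 genes, Nnt for 3 probes, and Kcnq3, Pnliprp2 and AK008862 for 1 each. These groups were formed after the values were seen, and serve to order the description.

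In mice of 12 weeks, which are other animals than those of 6 weeks, 12.5% of all genes and 10.0% of all probes were called between the strains. Of the 63 genes, 50 were called again at 12 weeks in the direction seen at 6 weeks. The sign was the same for 66 of the 68 probes, and the difference between the ages, tested as an interaction in limma, was called for 8 of the 68 (6.28% of all probes and 7.97% of all genes). Microdissected epithelium, which the series' design text says was taken from the same mice, fitted separately, gave 0.0340% of probes as called at 6 weeks. In epithelium 57 of the 68 probes had the same sign as in intact colon and 5 were called in that direction, those of Rab7b, Stk25, Wdfy1, Mgat5 and Gin1, all on chromosome 1.

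**Figure D1:**
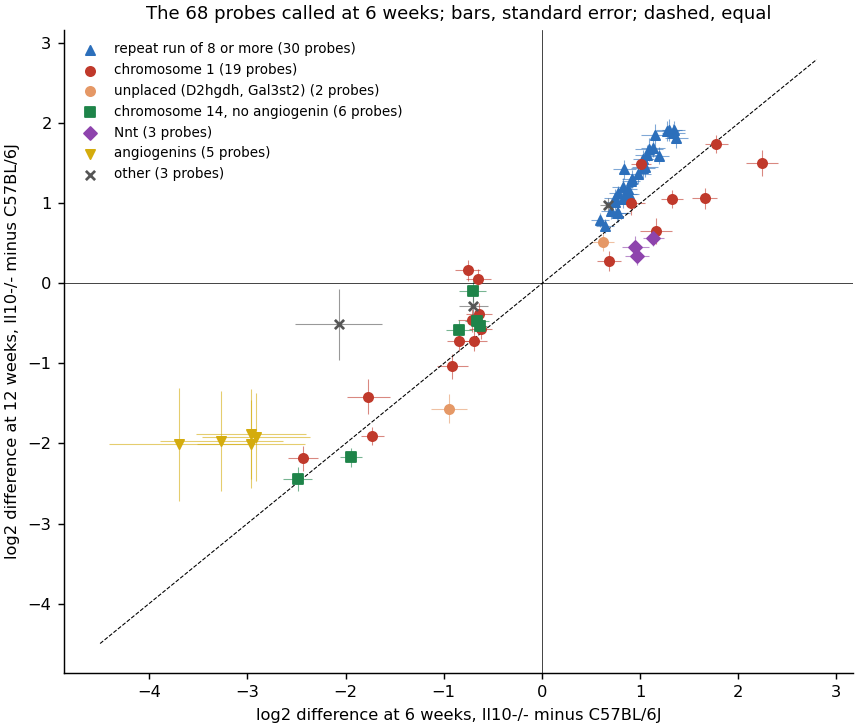
The 68 probes called at 6 weeks, with the difference in log2 ratio between mice labelled Il10-/- and C57BL/6J at 6 weeks on the horizontal axis and at 12 weeks on the vertical axis; bars are standard errors of the limma fit and the dashed line marks equal differences. The 30 probes with the repeat lie above the dashed line, the Nnt probes below it, and 66 of the 68 probes have the same sign at both ages.

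Il10 itself was the first gene examined, since the labels name it as the gene that was removed. Its probe (NM_010548, chromosome 1 of mm7, 130928485 to 130928544) had log2 ratios of 0.88 to 1.51 with a median of 1.14 in the 6 mice labelled Il10-/-. In the 6 mice labelled C57BL/6J they ran from -0.08 to 0.37 with a median of 0.12. The probe was thus higher in the mice labelled as lacking the gene, without overlap, by 1.01 (standard error 0.10, adjusted p = 1.6e-06 in limma). It was well above background on 6 of the 6 arrays labelled Il10-/- and on 1 of the 6 labelled C57BL/6J. The same direction held at 12 weeks, with a difference of 1.498 (adjusted p = 6.3e-10 in limma). The files do not say which part of the gene the probe matches, and a probe outside the disrupted part checks nothing about the labels. Groups are therefore named as their labels give them, and each direction between strains rests on those labels. At 12 weeks 12 of 25 proinflammatory cytokines were called higher, and none lower, in the mice labelled Il10-/-.

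The genes near Il10 stood out by position. Within 20 Mb of the Il10 probe lay 10 of the 63 called genes (15.9%), against 263 of the 27410 genes with a position (0.96%). Chromosome 1 as a whole held 19 of the 63, against 1618 genes tested (5.90% of those with a position). With a window of 5 Mb the count was 8 and with 50 Mb it was 17. The called genes near Il10 went in both directions: Il10, Pm20d1, Zc3h11a, 3110009E18Rik and Inhbb were higher, and Rab7b, Mgat5, Cd55, Cd55b and Mfsd4a lower. All but the Inhbb probe are without the repeat.

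Rab7b, a small GTPase of endosomes that acts in the traffic of Toll-like receptors, lay 0.68 Mb from the Il10 probe (chromosome 1 of mm7, 131608159 to 131608218). Its log2 ratios ran from -0.28 to 0.15 with a median of -0.05 in mice labelled Il10-/- and from 2.04 to 2.83 with a median of 2.31 in C57BL/6J mice. Every mouse labelled Il10-/- was lower than every control, and the difference was -2.43 (standard error 0.16, adjusted p = 7.1e-10 in limma). Within the 6 slides, each of which held 1 array of every group, it ran from -3.12 to -1.92. At 12 weeks it was -2.19 and in epithelium at 6 weeks -2.19 (adjusted p = 0.00086 in limma).

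Mgat5, the enzyme that adds a branch to the sugar chains of cell surface proteins, lay 3.65 Mb before the Il10 probe (127277768 to 127277827). The 6 mice labelled Il10-/- had log2 ratios of -0.04 to 0.98 (median 0.25), and the controls 1.54 to 2.59 (median 2.28). The groups did not overlap, and the difference was -1.77 (standard error 0.22, adjusted p = 4.5e-05 in limma). It was seen in epithelium too, at -1.98. The other 2 probes of Mgat5 (127350580 to 127358528 and 127367074 to 127367133) differed by only -0.16 and -0.14 and were not called, so that 1 of 3 probes showed the difference. The probe at -0.16 was well above background on 1 of 6 arrays labelled Il10-/- and on 0 of 6 controls, so it could show little.

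Pm20d1, a secreted enzyme that joins fatty acids to amino acids, was higher in mice labelled Il10-/- by 1.16 (131713376 to 131713435; standard error 0.17, adjusted p = 0.00031 in limma). Log2 ratios were -0.75 to -0.22 (median -0.59) against -1.91 to -1.16 (median -1.76), without overlap. Zc3h11a, a zinc finger protein of messenger RNA export, was higher by 0.91 (133522518 to 133522577; adjusted p = 0.0013 in limma), with all 6 mice labelled Il10-/- at 0.23 or above and all controls at -0.37 or below. Its other 2 probes differed by 0.20 and 0.13 and were not called.

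Among the genes near Il10 that were called at 6 weeks, Cd55, which protects cells from complement, had the strain difference that changed most between the ages. At 6 weeks its log2 ratio was -1.07 to -0.40 (median -0.71) in mice labelled Il10-/- and -0.39 to 0.32 (median 0.12) in controls, and the lowest control lay just above the highest mouse labelled Il10-/-. The difference was -0.76 (130344430 to 130352416; standard error 0.13, adjusted p = 0.0037 in limma). At 12 weeks the sign turned, to 0.16 (adjusted p = 0.416 in limma), and the change of 0.92 between the ages was called (adjusted p = 0.0021 in limma). The probe named Cd55b, a close copy of Cd55 next to it, went the same way, with -0.65 at 6 weeks, 0.06 at 12 weeks and a called change of 0.70, and its call was lost without any of 8 single mice. The 2 genes are near-identical, so their probes may not tell them apart. Another pair of Cd55 probes differed by -0.20 and -0.02 at 6 weeks and another of Cd55b by 0.01, none of them called. This second Cd55b probe was well above background on no array of 6 weeks. Cd55 was no longer called with the processed signals (adjusted p = 0.112 in limma).

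Mfsd4a, a membrane transporter, was lower in 1 of its 3 probes (-0.72, adjusted p = 0.019 in limma), and its other probes lay at -0.09 and -0.05. The call was lost when any of 6 single mice was left out. 3110009E18Rik was higher by 0.68 (adjusted p = 0.0097 in limma) in a probe that lay without overlap, while its second probe was at -0.62 and not called.

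**Figure D2:**
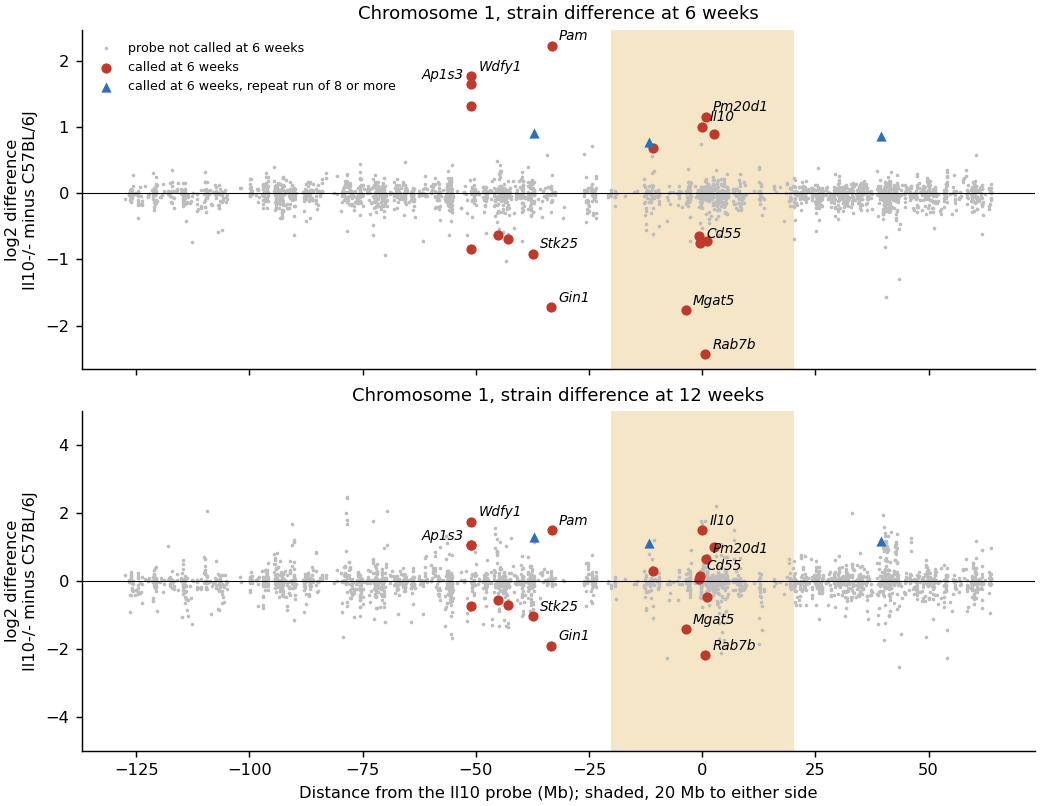
Probes of chromosome 1 by distance in Mb from the Il10 probe, with the difference in log2 ratio between mice labelled Il10-/- and C57BL/6J at 6 weeks (top) and 12 weeks (bottom); grey dots are probes not called at 6 weeks, red dots are called and blue triangles are called with the repeat. Rab7b, Mgat5, Pam, Gin1 and Wdfy1 keep large differences at both ages, whereas Cd55 is below 0 at 6 weeks and above 0 at 12 weeks.

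A second stretch of chromosome 1, 33.3 to 51.1 Mb before the Il10 probe, held the remaining called genes of that chromosome that have a position and no repeat. Pam, which amidates peptide hormones, had the largest rise of any called gene (97674031 to 97674090, 33.3 Mb before the Il10 probe). Its log2 ratios were 0.08 to 0.75 (median 0.22) in mice labelled Il10-/- and -2.28 to -1.47 (median -1.96) in controls. The difference without overlap was 2.24 (standard error 0.16, adjusted p = 7.4e-09 in limma), and at 12 weeks it was 1.505. In epithelium the same probe differed by -0.02, and the other 2 probes of Pam in intact colon by 0.27 and -0.12, none of them called. The Pam probe at -0.12 was well above background on 1 of 6 arrays of each strain.

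Gin1, a gene derived from a retrotransposon integrase, lay next to Pam and was lower. Its log2 ratios were -0.87 to -0.46 (median -0.74) against 0.73 to 1.24 (median 1.03), a difference of -1.73 (97629757 to 97629816; standard error 0.12, adjusted p = 1.4e-09 in limma). A second Gin1 probe differed by 6.8e-05. Stk25, a stress-responsive kinase, was lower (-0.91, 93529844 to 93529903; adjusted p = 0.0041 in limma), with -0.18 to 0.75 (median 0.08) against 0.85 to 1.61 (median 1.05). In epithelium its difference was larger, -1.99 (adjusted p = 0.00019 in limma), but the tissues were normalized apart and were not tested against each other. Stk25 was not called when only the 12 arrays of 6 weeks were fitted (adjusted p = 0.0846 in limma).

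Wdfy1, an adaptor of endosomal Toll-like receptors, differed in opposite directions along its length. A probe at 79926145 to 79926204 had log2 ratios of -0.07 to 0.29 (median 0.09) in mice labelled Il10-/- and -2.06 to -1.21 (median -1.72) in controls, a difference of 1.78 (standard error 0.11, adjusted p = 7.1e-10 in limma). A neighbouring probe (79924980 to 79925039) was higher by 1.33 and another (79939763 to 79939822) was lower, at -0.84 (adjusted p = 0.00038 in limma). All 3 kept their direction at 12 weeks, at 1.75, 1.05 and -0.72, and in epithelium at 6 weeks, at 1.42, 0.80 and -0.50. Ap1s3, a subunit of a clathrin adaptor, lies beside Wdfy1 and was higher by 1.66 (79827828 to 79828204; standard error 0.13, adjusted p = 3.2e-08 in limma). The Ap1s3 ratios of 0.07 to 0.48 (median 0.38) and -1.51 to -0.96 (median -1.39) did not overlap, its difference was smaller at 12 weeks by a called -0.59, and its other probe differed by 0.04. Ugt1a6b, which conjugates phenols and drugs for excretion, was lower (-0.69, adjusted p = 0.014 in limma; -0.72 at 12 weeks), but its second probe differed by 0.06. The Ugt1a6b call was lost with the slide as a block (adjusted p = 0.0627 in limma) and without either of 2 single mice, replicate 2 of the mice labelled Il10-/- and replicate 3 of the controls (adjusted p = 0.0513 and 0.0554 in limma). Also lower were the transcripts TC1435794 (-0.62, adjusted p = 0.015 in limma), whose call was lost without replicate 2 of the mice labelled Il10-/- or replicate 1 of the controls (adjusted p = 0.058 and 0.0598 in limma), and, on an unordered piece of the chromosome, 5730419F03Rik (at least 1.19-fold, adjusted p = 0.042 in limma), whose groups overlapped.

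Gal3st2, which sulphates mucin sugars, and D2hgdh, a mitochondrial dehydrogenase, have no chromosome in the files' build. They are listed beside Stk25 and Ing5 on chromosome 1 in the RefSeq annotation of GRCm38. Gal3st2 was lower (-0.94, adjusted p = 0.017 in limma; -1.56 at 12 weeks) and D2hgdh higher by 0.62 (adjusted p = 0.0079 in limma). The call of Gal3st2 was lost without any of 7 single mice.

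Away from chromosome 1, called genes of chromosome 14 that are no angiogenin and have no repeat in their probe were all lower. Pinx1, on the same chromosome with the repeat, was higher by 1.09. Lrmda, a gene of melanocyte differentiation, had log2 ratios of -2.31 to -1.71 (median -2.08) in mice labelled Il10-/- and 0.12 to 0.77 (median 0.42) in controls. The difference of -2.49 (20713625 to 20713684; standard error 0.15, adjusted p = 2.4e-10 in limma) was -2.45 at 12 weeks. An unnamed transcript close by, AK084429, was lower at 6 weeks (at least 1.3-fold, adjusted p = 0.019 in limma) and differed by -0.09 at 12 weeks. Its call was lost without any of 5 single mice and in a fit of the 6 week arrays alone (adjusted p = 0.0637 in limma).

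Slc25a37, or mitoferrin, which brings iron into mitochondria, was lower farther along the chromosome. Its probe (64325153 to 64325212) rose well above background in all 6 controls and in no mouse labelled Il10-/-, so its fold change is a bound. With ratios of -0.53 to -0.23 (median -0.45) and 1.31 to 1.94 (median 1.42) it was at least 2.71-fold lower (adjusted p = 2.4e-10 in limma). Such a bound sets the bright group against the dimmest signals still called above background, and without exchanged dyes it is open to dye bias. The other 2 Slc25a37 probes (64104507 to 64104566 and 64107682 to 64107741) differed by 0.06 and 0.05. Entpd4, a Golgi enzyme that splits nucleotides, was lower in 1 of 2 probes, at -0.63 (64228679 to 64228738; adjusted p = 9.9e-06 in limma). Between them lay AK038254, at least 1.41-fold lower (adjusted p = 0.0009 in limma), and a transcript known as NAP045521-1, at -0.66.

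Nnt, the mitochondrial transhydrogenase that makes NADPH, is known to carry a deletion in C57BL/6J mice, which other C57BL/6 substrains lack. Of its 4 probes, the 3 nearest to each other on chromosome 13 (116544819 to 116545457) were higher in mice labelled Il10-/-. The first had log2 ratios of -1.15 to -0.79 (median -0.88) against -2.25 to -1.90 (median -2.06), a difference of 1.14 without overlap (standard error 0.10, adjusted p = 2.8e-07 in limma). The others differed by 0.97 and 0.95, and the fourth, at 116603069 to 116603127, by -0.06. At 12 weeks the same 3 differences were 0.57, 0.35 and 0.46, with adjusted p of 0.00024, 0.041 and 0.0147 in limma, but under 1.5-fold and so not called. The change with age was called for the second (adjusted p = 0.025 in limma).

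The plot of 8 genes by mouse shows how these patterns differ.

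**Figure D3:**
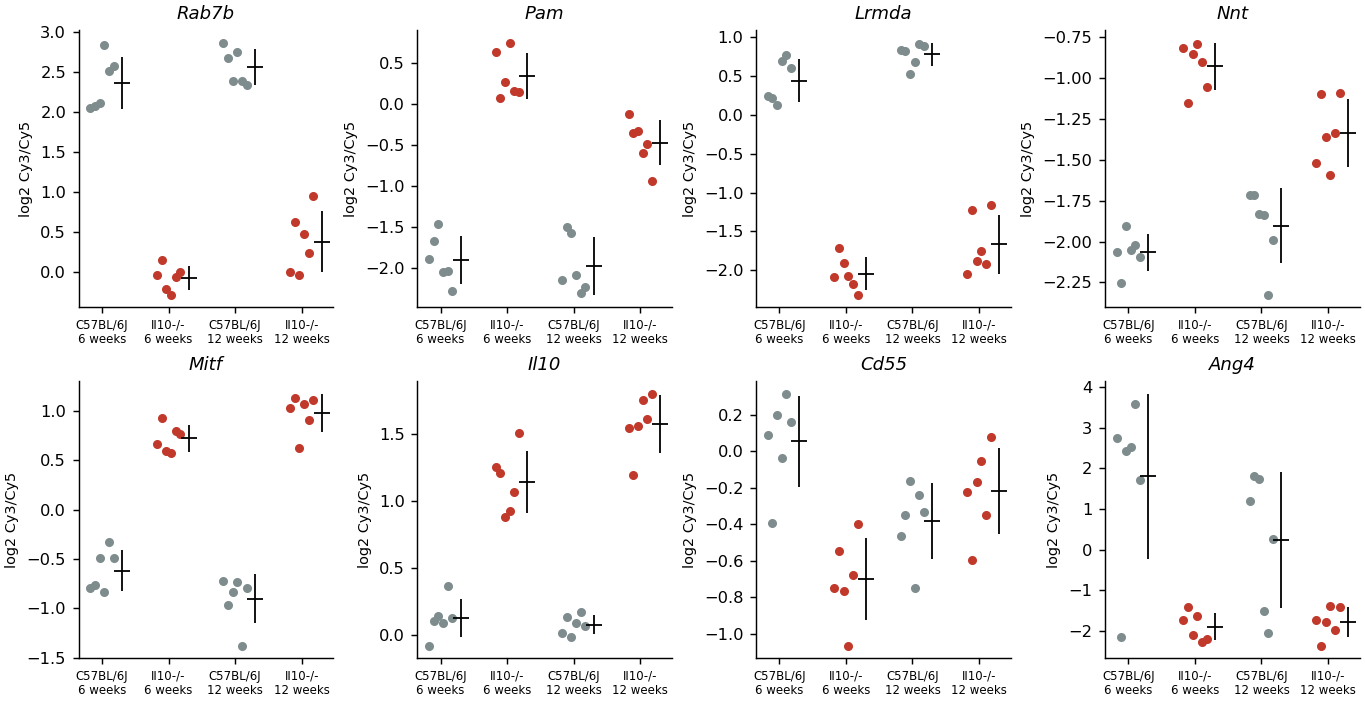
Log2 ratio of Cy3 over Cy5 in each of the 24 mice for 8 genes called at 6 weeks, in grey for mice labelled C57BL/6J and red for mice labelled Il10-/-, with horizontal bars at the mean and vertical bars for the SD (n = 6). Rab7b, Pam, Lrmda, Nnt, Mitf and Il10 separate the strains at both ages, Cd55 at 6 weeks alone, and for Ang4 C57BL/6J mice at -2.14 (6 weeks) and at -1.51 and -2.04 (12 weeks) lie among the mice labelled Il10-/-.

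The largest differences of all belonged to the angiogenins, small secreted ribonucleases of which Ang4 is an antimicrobial protein of Paneth and goblet cells. Ang4 (chromosome 14, 47098071 to 47098130) had log2 ratios of -2.27 to -1.42 (median -1.92) in mice labelled Il10-/-. In the controls they were 2.74, -2.14, 2.42, 2.52, 3.58 and 1.71 from replicate 1 to 6, so that 5 control mice were far higher and 1 lay within the range of the other strain. The difference was -3.70 (standard error 0.71, adjusted p = 0.016 in limma). A second Ang4 probe differed by -3.27, and Ang, Ang2 and Ang3 by -2.97, -2.92 and -2.96. For each of the 5 probes the groups overlapped. A second, dimmer Ang probe (46435448 to 46435507) differed by -1.23 and was not called (adjusted p = 0.217 in limma). These genes are close copies of each other, and how far 1 probe picks up the transcripts of another was not determined.

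The Ang4 call was close to the threshold. It was lost when replicate 5 of the mice labelled Il10-/- or replicate 1, 3, 4 or 5 of the controls was left out (differences of -3.34 to -3.62, adjusted p of 0.0508 to 0.066 in limma). It was also lost in a fit of the 12 arrays of 6 weeks alone (adjusted p = 0.0926 in limma) and with the slide as a block (adjusted p = 0.0569 in limma). The difference stayed between -3.34 and -3.70 in all of these. Without replicate 2 of the controls, the mouse at -2.14, it was -4.48 (adjusted p = 2.3e-05 in limma). The other angiogenin probes were not refitted one by one. At 12 weeks all 5 probes were called lower again, with -1.88 to -2.01, and the Ang4 groups overlapped there too. In epithelium at 6 weeks all were lower, Ang4 by -2.59 (standard error 0.87, adjusted p = 0.72 in limma), and none was called. Of the other Paneth cell markers measured, Lyz1 and Mmp7 differed by 0.16 and 0.18 and Itln1 by -1.56 (standard error 0.42), none of them called. The goblet cell marker Clca1 differed by -1.89 (standard error 0.58, adjusted p = 0.711 in limma), whereas 5 of the 7 goblet markers measured were positive, and the median of the 7 was 0.14. The part of these cells in the angiogenin result was not tested.

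Pnliprp2, a lipase of the pancreas and of some gut cells, was lower (-2.07, standard error 0.44, adjusted p = 0.0491 in limma), with overlapping groups at -2.77 to -1.63 and -1.82 to 1.49. All 9 pancreas markers measured had negative differences, with a median of -0.23 and none called (1 at an unadjusted p under 0.05). Their mean log2 ratio was -3.05 to -2.27 in mice labelled Il10-/- and -2.66 to -1.93 in controls, and its part in the result was not tested.

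The largest group of called probes was spread over the genome. Its 30 probes named 30 genes on 16 different chromosomes, 1 of the probes lying on an unordered piece, and all 30 contained a run of at least 8 letters of the repeat GAA, read in any of its 3 phases on the strand of the probe. Such a run was found in 1.07% of the 41174 probes, and the same run on the other strand (TTC) in 0.549%. The pattern was noticed after the values were seen. The genes have unlike functions: Mitf is a transcription factor of pigment cells, Srrm3 a splicing protein of neurons, L3mbtl2 a chromatin protein, Afap1 an actin binding protein and Aff4 a subunit of a transcription elongation complex. Their probes are printed 5′ to 3′ as the files give them, with the repeat run in capitals, because this run is what the probes share.

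Mitf, chromosome 6 of mm7: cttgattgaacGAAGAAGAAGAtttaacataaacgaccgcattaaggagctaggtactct
Srrm3, chromosome 5: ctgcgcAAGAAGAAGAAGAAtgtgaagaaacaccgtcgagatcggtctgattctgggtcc
L3mbtl2, chromosome 15: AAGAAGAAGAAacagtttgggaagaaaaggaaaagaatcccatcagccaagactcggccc
Afap1, chromosome 5: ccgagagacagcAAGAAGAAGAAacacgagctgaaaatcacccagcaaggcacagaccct
Aff4, chromosome 11: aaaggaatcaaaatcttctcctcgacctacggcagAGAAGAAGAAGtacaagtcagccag

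Mitf (98094274 to 98098530, plus strand) had log2 ratios of 0.57 to 0.92 (median 0.72) in mice labelled Il10-/- and -0.84 to -0.33 (median -0.63) in controls. The difference was 1.34 (standard error 0.11, adjusted p = 8.8e-08 in limma). The unnamed transcripts AK086528 and AK089867 were higher by 1.34 and 1.14. Srrm3, with a run of 14 letters, was higher by 1.29 (134825667 to 134825858, plus strand), L3mbtl2 by 1.27 (81769814 to 81770637, plus strand), Afap1 by 1.05 (35013321 to 35013380, plus strand) and Aff4 by 0.87 (53356798 to 53356857, plus strand). For all 30 probes the 6 mice of each strain lay apart, with differences of 0.59 to 1.37 and a median of 0.91.

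At 12 weeks all 30 were called higher again, and in every case the difference was larger than at 6 weeks, with 0.72 to 1.92 and a median of 1.34. The increase was called as an interaction for 4, those of Srrm3, L3mbtl2, Stra6 and Sh3pxd2a. In epithelium none was called by limma at 6 weeks (0 of 30 at an unadjusted p under 0.05), 27 of 30 were positive, and the median was 0.18. The mean log2 ratio of the 30 probes was 0.45 to 0.77 in the 6 mice labelled Il10-/- and -0.53 to -0.17 in the controls.

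Other probes of the same genes did not share the difference. For 21 of the 30 genes the array held 44 further probes without the repeat, and none of these was called by limma (1 of 44 at an unadjusted p under 0.05), with differences of -0.28 to 0.29 and a median of 0.03. Mitf had 1 such probe at -0.04 and Srrm3 3 at 0.04 to 0.14. The Srrm3 probe at 0.14 (134825687 to 134825878) covers nearly the same span as the called one. Some of the 44 probes were dim, and a dim probe can show little. The Srrm3 probe at 0.04 and a Hormad1 probe were well above background on no array of 6 weeks. The mean log2 intensity of the Srrm3 probe at 0.14 was 6.4, against 11.6 for the called one. Others were well above background on 6 of 6 arrays of each strain, such as Ddx42 at -0.10 and a Mier1 probe at -0.004.

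The share of called probes rose with the length of the run. It was 0.0912% at runs of 5 letters or less (34 of 37282 probes), 0.0785% at 6 (2 of 2548) and 0.222% at 7 (2 of 902). It then reached 1.33% at 8 (4 of 300), 5.49% at 9 (5 of 91), 20.8% at 10 (5 of 24) and 59.3% at 11 or more (16 of 27). The median difference over all probes with runs of 11 or more was 0.87, and over those with runs of 5 or less -0.01. Of the 38 called probes without a run of 8, Kcnq3 and 1 probe of Nnt had runs of 7, and both were higher. Of 70 probes with runs of 9 or more on the other strand (TTC), none was called by limma and 2 had an unadjusted p under 0.05.

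**Figure D4:**
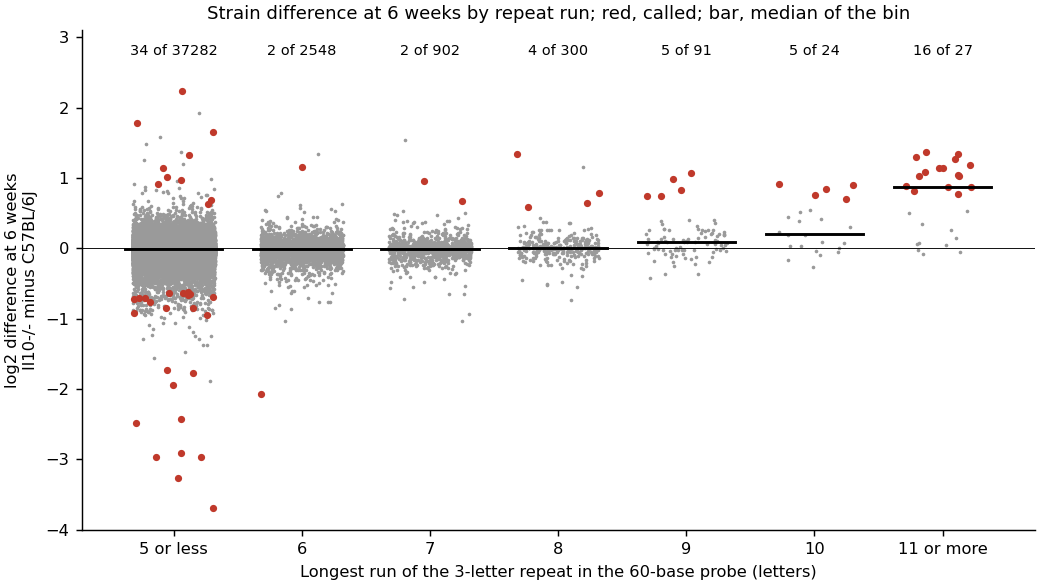
Difference in log2 ratio between mice labelled Il10-/- and C57BL/6J at 6 weeks for each of the 41174 probes, grouped by the longest run of the repeat in the probe in letters; called probes are red, the black bar is the median of a group, and the text gives the called probes of the total. Called probes lie on both sides of 0 at short runs and only above 0 from runs of 7 on, and their share reaches 59.3% at runs of 11 or more.

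Not every probe with a long run was called. Of those that were not, 4 with runs of 11 or 12 letters are shown for contrast with the called ones.

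Grk6, chromosome 13: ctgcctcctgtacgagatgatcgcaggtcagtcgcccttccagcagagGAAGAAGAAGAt
Nudt1, chromosome 5: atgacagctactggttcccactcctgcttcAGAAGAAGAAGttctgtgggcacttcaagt
Septin6, chromosome X: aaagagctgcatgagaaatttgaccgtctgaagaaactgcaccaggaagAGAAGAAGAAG
Myh6, chromosome 14: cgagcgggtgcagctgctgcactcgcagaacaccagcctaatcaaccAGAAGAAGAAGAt

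Grk6 (54535081 to 54535140) differed between the strains by 0.14, Nudt1 (139308608 to 139308667) by 0.07, Septin6 (31682740 to 31686550) by -0.05 and Myh6 (49811341 to 49812926) by -0.07 at 6 weeks, and none was called. Of the 142 probes with runs of 9 or more, 15 of 45 were called where the run lay in bases 1 to 20, 8 of 56 in bases 21 to 40 and 3 of 41 in bases 41 to 60. With runs of 10 or more that began at base 42 or later, none of 10 was called, against 21 of 41 that began earlier. These counts describe the probes of this array and carry no test. The part of the repeat in the 30 differences was not tested with another method, and no level of these 30 transcripts is inferred from them.

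Without the probes that carry a run of 8 or more, an alternative added after the data were seen, 30 genes were called, 10 higher and 21 lower. Of these 30, 20 were called again at 12 weeks in the same direction and 9 lay within 20 Mb of Il10.

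Genes of inflammation and of the epithelium were described by lists. The lists covered cytokines, chemokines, interferon response, antigen presentation, microbial sensing, epithelial defence, matrix remodelling, mucus, mineral handling, metabolism and protein processing. They also held the study's own inflammatory bowel disease genes and 5 genes that mark sex. Of their 345 genes 338 were measured, and Il10 and Ang4 were the 2 called (0.592%, against 0.228% of all genes). At an unadjusted p under 0.05 lay 4.73% of all genes, each by its brightest probe, as in the lists. For the 31 chemokine ligands measured the median difference was -0.03, with none called by limma at 6 weeks (1 at an unadjusted p under 0.05), and 15 called higher and 3 lower at 12 weeks. For the 25 proinflammatory cytokines the median was 0.02, with none called (2 at an unadjusted p under 0.05) and 12 called higher at 12 weeks. For the 41 genes of the interferon response it was -0.25, with 17 positive and 24 negative, none called (3 at an unadjusted p under 0.05) and 23 called higher at 12 weeks. Of the study's 32 inflammatory bowel disease genes none was called at 6 weeks (median 0.05, 1 at an unadjusted p under 0.05). At 12 weeks 28 of them were called higher and 1 lower. The median over all probes was -0.01.

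Of the 11 genes of antigen presentation by MHC class II, 10 had positive differences, with a median of 0.27 and H2-DMb2 highest at 0.58. None was called, and 2 had an unadjusted p under 0.05 (18.2%). At 12 weeks 9 of the 11 were called higher. The mean log2 ratio of the 11 was -0.71 to 0.64 in mice labelled Il10-/- and -0.74 to -0.05 in controls, so the groups overlapped widely. The endoplasmic reticulum list had 21 of 25 positive, a median of 0.20 and no gene called (7 at an unadjusted p under 0.05, or 28%, against 4.73% of all genes), and its highest gene was the chaperone Hyou1 at 0.47. The list of antimicrobial and acute epithelial defence had 12 of 25 positive, a median of -0.04 and Ang4 as its called gene, with 6 at an unadjusted p under 0.05 (24%). The list of vitamin D and mineral handling had 6 of 14 positive, a median of -0.08 and none called, with 4 at an unadjusted p under 0.05 (28.6%). In the list of IL-10 family and signalling genes, Il10 alone was called of 16, and the receptor subunits Il10ra and Il10rb differed by 0.08 and -0.24.

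The highest or lowest genes of several lists, none of them called, are given next. Ifng, the interferon of T cells, was at 0.38, the interleukin receptor subunit Il20rb at -0.31 and the chemokine Ccl19 at -0.71. Its receptor Ccr7 was at 0.10, and the eotaxin receptor Ccr3 at -0.50. Of the sensors of bacterial lipopolysaccharide, Cd14 was at 0.20 and Ly96 at -0.42. The protease Plau lay at -0.50, the goblet cell lectin Zg16 at 0.41 and the tight junction protein Cldn8 at -0.40. Among genes of metabolism and protein processing, the fatty acid carrier Fabp1 was at -0.49, Derl3, which helps clear misfolded proteins, at -0.26 and the amino sugar enzyme Gnpda2 at -0.27.

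Some single genes had large differences that did not pass the test, and their values varied widely between mice. Reg3b, a lectin of the gut epithelium that kills bacteria, had a difference of 1.92 (standard error 0.93, adjusted p = 0.999 in limma). Log2 ratios were 1.55, 2.28, 0.47, -2.17, 0.22 and 2.16 in mice labelled Il10-/- and -2.52, 2.25, -3.78, -3.07, -1.19 and 1.30 in controls, from replicate 1 to 6. High and low mice occurred in both strains, though on each of the 6 slides the mouse labelled Il10-/- was the higher, by 0.03 to 4.25. At 12 weeks the difference was 4.97 and called.

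Ido1, which degrades tryptophan and is induced by interferon gamma, was closer to a separation. Its ratios were 0.35, 2.38, 0.55, -0.82, 0.04 and 1.84 against -1.06, -1.10, -1.42, -0.85, 0.21 and -0.90, a difference of 1.58 (standard error 0.44, adjusted p = 0.429 in limma). Of the 6 mice labelled Il10-/-, 4 lay above every control. Pigr, which carries IgA into the lumen, had ratios of 0.39 to 1.02 against -0.57 to 0.37, a difference of 0.75 without overlap that did not pass either (adjusted p = 0.436 in limma), and 1.76 at 12 weeks. The distance of Pigr from Il10 is not given here, and a passenger difference was not told apart from an early response. Pigr, Ido1 and the next gene were chosen for mention after their values were seen. Retnlb, a goblet cell protein that acts on bacteria, pointed the other way at 6 weeks, by -1.48 (adjusted p = 0.862 in limma), and was higher by 2.69 at 12 weeks, and this change was called (adjusted p = 0.00039 in limma).

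Cxcl10, a chemokine for T cells, differed by 1.34 and the interferon-induced GTPase Iigp1 by 1.37 (adjusted p = 0.999 in limma for each), while another interferon gene, Oas2, lay at -1.06. S100g, which carries calcium through enterocytes, was at 1.88 to 3.48 in mice labelled Il10-/- and -1.03 to 2.76 in controls, a difference of 1.54 (adjusted p = 0.852 in limma). At 12 weeks the S100g difference was -4.39, and the change of -5.92 between the ages was called (adjusted p = 3.4e-05 in limma).

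Genes that differed in the colitis of 12 week old mice were then followed back to 6 weeks. At 12 weeks 4.40% of all probes were called higher and 5.63% lower, and 826 probes were called higher by at least 2-fold in mice labelled Il10-/-, with a median difference of 1.37. In the mice of 6 weeks the median difference of these 826 was 0.00079, 416 of them were positive, and 31 were called (3.75%, against 0.165% of all probes). Those 31 were 25 probes with the repeat and 6 probes of Il10, Pam, Wdfy1, Ap1s3 and Zc3h11a on chromosome 1, all higher at 6 weeks as well. The 753 probes called lower by at least 2-fold at 12 weeks had a median of -0.08 at 6 weeks, and 12 were called (1.59%). These were the 5 angiogenin probes, 4 probes of Rab7b, Mgat5, Gin1 and Stk25, 2 of Lrmda and Slc25a37, and that of Gal3st2.

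Single mice departed from their group. The mean log2 ratio of the 826 probes was -0.73 to 0.39 in mice labelled Il10-/- and -0.57 to -0.06 in controls, and the mouse at 0.39 was replicate 2 of the mice labelled Il10-/-. In mice labelled Il10-/- of 12 weeks it was 0.86 to 1.39. Without that mouse the median difference of the 826 was -0.11.

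A control mouse, replicate 5, had the highest value of the 12 mice for S100a8, Cxcl5, Il1b, Mmp3 and Il6, genes chosen after their values were seen, though not for Reg3b, Ido1 or Cxcl10. For S100a8, a calcium binding protein of neutrophils, this mouse had a log2 ratio of 2.62, the other controls were at -2.502 to -1.40, and mice labelled Il10-/- were at -2.61 to 0.06. Cxcl5, a neutrophil chemokine, was at 3.65 in it against 0.09 or less in the other controls, and Il1b at 4.04 against 1.15 or less. Mmp3, a matrix protease, was at 4.33, and Il6 at 2.79 where the other controls had 0.01 or less. The 9 neutrophil markers had a mean of 0.94 in this mouse, above all other 11 mice of 6 weeks. Replicate 2 of the mice labelled Il10-/- had high Cxcl5, at 3.62, with Il1b at 2.65.

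With this control mouse left out, 52 genes were called, 39 higher and 14 lower, and the median 6 week difference of the 826 probes was 0.04. The difference of Il6 turned from -0.43 to 0.06, with no call in either case. The Il6 probe was well above background on only 1 of 6 arrays of each strain, so most of its values are background signal. The called genes that had a called change with age fell from 8 to 2.

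**Figure D5:**
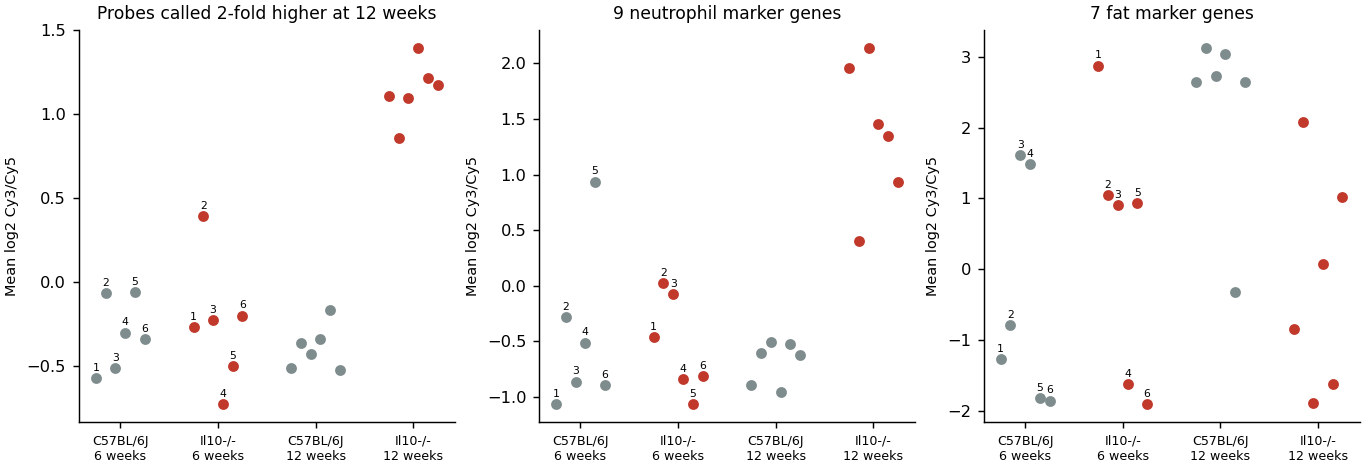
Mean log2 ratio in each of the 24 mice of the 826 probes called at least 2-fold higher at 12 weeks (left), of 9 neutrophil marker genes (middle) and of 7 fat marker genes (right), in grey for mice labelled C57BL/6J and red for mice labelled Il10-/-, with replicate numbers beside the 6 week mice. At 6 weeks the strains overlap in each panel, C57BL/6J replicate 5 has the highest neutrophil value, 0.94, and fat markers run from -1.91 to 2.88.

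Markers of cell types were used to ask whether the pieces of colon were alike. Epithelial markers had mean log2 ratios of 0.54 to 0.83 in mice labelled Il10-/- and 0.38 to 0.75 in controls, and smooth muscle markers 0.64 to 0.92 and 0.30 to 0.88. Fat markers ranged most widely, from -1.91 to 2.88 against -1.86 to 1.61, and all 7 had positive differences, with a median of 0.76 and none called (0 at an unadjusted p under 0.05). Adipoq, the hormone of fat cells, ran from -2.86 to 3.47 and from -3.03 to 2.25. No gene of any marker list was called at 6 weeks except Ang4, and the part of fat or other tissue in the results was not tested. In intact tissue, fewer cells of a type and less RNA per cell cannot be told apart.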

How the data were processed

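RNA of the intact colon of 24 mice, 6 in each of 4 groups of strain and age, was hybridized to 24 Agilent two-colour arrays on 6 slides, and the 2 groups of 6 weeks are compared here. Groups follow the sample labels. Per the file headers the deposited intensity of each spot, with its flags, came from Feature Extraction 9.5.1.1 on a linear scale without normalization, and its processed intensity was background-subtracted and dye-normalized. A second table deposited by the authors holds their log2 ratios (red to green) after loess, with no background taken off. Limma and R 2.14.1 are named in the submitters' processing notes. Positions are those in the files, on mm7.

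Mean spot intensities were used as they stand. Controls were dropped and outlier-flagged spots were treated as missing. Each array was loess-normalized over all its spots (span 0.3, 4 iterations) before repeated probes were averaged, and ratios were expressed as Cy3 over Cy5. The lowest r with the authors' table over 24 arrays was 0.999979. The 4 groups were fitted in 1 model in limma 3.58.1 under R 4.3.3, two-sided, with Benjamini-Hochberg adjustment over all probes. Of 24 epithelium arrays 23 were fitted apart, on median intensities, leaving out the second of 2 arrays of 1 C57BL/6J mouse of 12 weeks. Figures were drawn with matplotlib 3.10.9 under Python 3.11.15. Probes were named by accession (22951), by current symbol (6659), by older symbol (3108) or as in the files (8456).

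Per the labels each sample is 1 mouse. Cy3 lay well above background at 51.8 to 80.3% of spots in mice labelled Il10-/- and 55.8 to 74.5% in controls of 6 weeks, and the number of arrays limits the precision. Spots flagged numbered 77 to 169 on these 12 arrays. Deviations of same-numbered mice correlated by -0.12 to 0.44, with 3 of 6 pairs over 0.1, and since not every pair was, the numbers, which are also those of the slides, were not taken as pairs. The highest r were those of replicates 2 (0.44) and 3 (0.36). Slides 2 and 3 also had the lowest shares of spots well above background, 51.8 to 56.3% in the mice of 6 weeks. The slide was fitted as a block in 1 of the alternatives.

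The genes named are Il10, every called gene within 20 Mb of it, the 12 largest rises and up to 12 largest falls (10 were found) among other called genes whose groups do not overlap, called genes of the lists, and the highest and lowest gene of a list. Genes outside this rule were chosen after their values were seen. The members and lists were chosen with earlier results of these data known. The alternatives were normexp correction, processed signals, the authors' table, Aquantile normalization, median intensities, flagged spots kept, dim probes left out, the slide as a block, the arrays of 6 weeks alone, array weights, FDR alone, windows of 5 and 50 Mb, and each mouse left out. The sequence and values of 1 called repeat probe that the rule names are not reported here.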

Additional observations from a re-analysis of the deposited data

Results flagged for a closer look

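The values of single mice were checked in 128 groups of 6 with Dixon's criterion, under which chance flags about 1 in 20 groups, and 14 were marked. Each has 1 mouse far from the other 5, and the values are log2 ratios. Among mice labelled C57BL/6J, replicate 3 had Pm20d1 at -1.16 (others -1.91 to -1.72), replicate 4 had Ap1s3 at -0.96 (others -1.51 to -1.33) and replicate 6 had Gal3st2 at 0.0549 (others 0.67 to 0.81). Replicate 2 had Ang4 at -2.14 where the others had 1.71 to 3.58. Replicate 5 had Il6 at 2.79 (others -0.25 to 0.01), and replicate 6 had Mt2, a metallothionein, at -2.25 (others 0.14 to 0.98).

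Among mice labelled Il10-/-, replicate 2 was marked most often. It had Inhbb at 0.61 (others 0.21 to 0.32), C330007P06Rik at 0.79 (others 0.41 to 0.54), the chemokine Ccl5 at 0.30 (others -1.34 to -0.76) and the esterase Ces2a at 0.37 (others 1.00 to 1.25). Replicate 3 had H2-Oa at 0.98 (others -0.17 to 0.15), replicate 4 had Gmppa at -0.10 (others 0.29 to 0.45), replicate 5 had Mt2 at 1.00 (others -2.15 to -1.03) and replicate 6 had Il6 at 0.18 (others -0.17 to -0.08). The Il6 probe was well above background on only 1 of 6 arrays of each strain.

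The strain difference at 12 weeks minus that at 6 weeks was called in limma for 19 of the genes named by the rule, each by 1 probe, 6 of them called at 6 weeks and 13 not. Among the 6 it was 0.92 for Cd55 (adjusted p = 0.0021 in limma), 0.70 for Cd55b (adjusted p = 0.015), -0.59 for Ap1s3 (adjusted p = 0.0495), 0.63 for Srrm3 (adjusted p = 0.045), 0.63 for L3mbtl2 (adjusted p = 0.0276) and 0.71 for Stra6 (adjusted p = 0.0226). The probes of Srrm3, L3mbtl2 and Stra6 carry the repeat. Among the 13 the change was positive for Ifng (2.58), Il6 (1.77), Ccr7 (1.66), H2-DMb2 (1.88), H2-Oa (1.12), Cd14 (1.47), Mmp7 (2.06), Derl3 (1.71) and Ccl5 (2.01). It was negative for Zg16 (-1.065), Cldn8 (-2.13), S100g (-5.92) and Ces2a (-1.08).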

How the results depend on the processing

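Of the 33 named genes that were called, none changed sign in any alternative. With the processed signals the genes called lower were 14 and those with a called change with age 2, with array weights the latter were 17, and with a window of 50 Mb 17 called genes lay near Il10. Without the repeat probes 30 genes were called, 10 higher, 20 also at 12 weeks and 4 with a called change with age. The slide as a replicate block left 62 genes called and 1 listed gene (Il10), Ang4 at an adjusted p of 0.0569 and Ugt1a6b at 0.0627 in limma; the fit of 6 week arrays alone left 1 listed gene too. No other named call was lost under the block. With each mouse left out in turn, 52 to 75 genes were called, 39 to 42 higher and 14 to 35 lower, with 8 to 10 near Il10, 1 to 2 on the lists, 46 to 57 also called at 12 weeks, 2 to 13 with a called change with age, and a median of -0.11 to 0.08 for the 826 probes. The extremes of 14 and 35 came without C57BL/6J replicates 5 and 2. Called genes that lost their call were 7 of 33 in other alternatives (Cd55, Cd55b, Mfsd4a, Stk25, AK084429, Ugt1a6b and Ang4). Uncalled values that turned were Mmp7 (-0.0556 with array weights, -0.0934 to 0.302 with each mouse left out), Ccr7 (-0.0385 to 0.171) and Il6 (-0.55 to 0.0567). The causes were not tested. The number of mice limits these data.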

Other observations

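Marker lists of other cell types gave few calls by limma at 6 weeks and are listed as values. Of 9 enteroendocrine markers, 8 had positive differences (median 0.25, none called, 1 at an unadjusted p under 0.05), with the secretory granule protein Chga highest at 0.51, whereas at 12 weeks 7 of the 9 were called lower, with a median of -1.71. The 6 plasma cell markers measured were all negative at 6 weeks (median -0.29, none called, 0 at an unadjusted p under 0.05), and 4 were called higher at 12 weeks. Of 8 T cell markers measured 2 were positive (median -0.11), and of 10 macrophage markers 2 (median -0.08), with none called in either list and 0 at an unadjusted p under 0.05. Smooth muscle and enteric neuron markers, of which 7 of 8 and 5 of 9 were called lower at 12 weeks, had medians of 0.08 and 0.0017 at 6 weeks, with none called and 0 at an unadjusted p under 0.05 in either list.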
